A study of Homo sapiens with 3 samples.

Results

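The 10 genes described here encode SR proteins and close relatives: SRSF2, SRSF3, SRSF4, SRSF5, SRSF6, SRSF7, SRSF10, SRSF11, TRA2A and TRA2B. They are the SR splicing factor genes other than SRSF1 that were chosen for a map of RNA contacted by TIA1 in HEK293T cells, an established human embryonic kidney line. Each gene was given a window of genome build hg19, and every interval of the deposited lists that overlapped the window by at least 1 nt on the same strand was taken as a member. The windows held 187 of 103134 clusters of eCLIP replicate 1, 174 of 66222 clusters of eCLIP replicate 2 and 28 of the 2253 peaks in the authors' reproducible list. All 10 genes held at least 1 cluster in each replicate.

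In eCLIP, cells are irradiated with ultraviolet light (600 mJ here) so that proteins bond to RNA in direct contact, and the RNA pulled down with an antibody against one protein is sequenced. The study has 2 TIA1 eCLIP libraries and 1 input that was not immunoprecipitated, each labelled as HEK293T with the same crosslinking. The library totals recovered from the deposited values were 2683407 reads in eCLIP replicate 1, 1997817 reads in eCLIP replicate 2 and 2851338 reads in the input. The labels do not settle whether the replicates are biological or technical, so the spread between them may be technical. The treatment protocol names another protein for the same antibody catalogue number; TIA1 is the protein named by the extract protocol, the titles and the antibody field. No TIA1-depleted cells or control antibody are among the samples, so what follows compares immunoprecipitated RNA with input RNA only.

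SR proteins carry RNA recognition motifs and a tail rich in arginine and serine. They bind exonic enhancer sequences, help the spliceosome choose splice sites, and gather in nuclear speckles. Many of their own transcripts contain alternative segments, often called poison exons, whose inclusion sends the mRNA to nonsense-mediated decay, which lets SR proteins limit their own amounts. TIA1 binds U-rich RNA, helps U1 snRNP recognise 5′ splice sites that are followed by U-rich intron sequence, and binds U-rich stretches in 3′ untranslated regions. An annotation and a genome sequence in the build of the files were not used here, so positions are given as distances within each gene window and not as exons, introns or untranslated regions.

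The authors list for each interval a log2 fold of eCLIP reads over input reads, scaled by library totals, and a −log10 p-value of that difference that stops at 400. A cluster was called enriched where both its log2 fold and its −log10 p reached 3. In replicate 1, 30 of the 187 clusters in the 10 genes were enriched (16.0%), against 3.09% of all clusters. In replicate 2, 35 of 174 were enriched (20.1%), against 5.32% of all clusters. Clusters in these genes also held more reads, with a median of 10 in replicate 1 and 8 in replicate 2, against 4 over all clusters of either list. Reads were recovered for 162 of the 187 clusters in replicate 1 and 159 of the 174 in replicate 2, and medians and limits on reads cover those only. An enriched SRSF5 cluster of replicate 1 at the ceiling of 400 is among those left out. The others left out had a −log10 p at or near 0, with 22 at exactly 0 in replicate 1. Over all clusters, reads were recovered for 88.7% in replicate 1 and 95.7% in replicate 2. Among clusters with at least 13 recovered reads in replicate 1, the fewest of any enriched cluster with recovered reads, 29 of 65 in the 10 genes were enriched (44.6%), against 43.3% of all such clusters. Among clusters with at least 10 recovered reads in replicate 2, the corresponding minimum, 35 of 68 were enriched (51.5%), against 52.3%. Above these minimum read numbers the share enriched in the 10 genes therefore lay close to that of all clusters. Read numbers above the minimum were not matched.

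**Figure D1:**
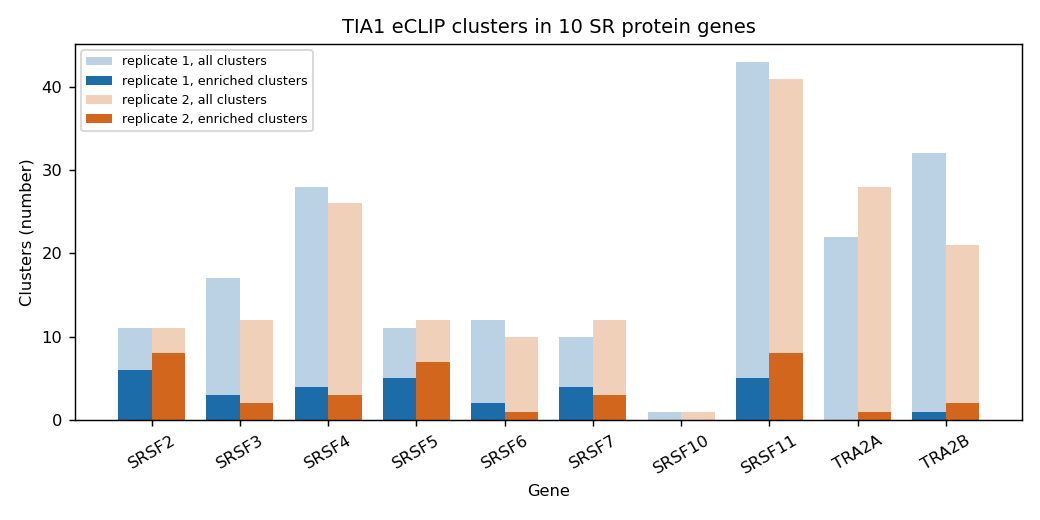
Number of TIA1 eCLIP clusters (y axis) in each of the 10 gene windows (x axis), with all clusters as pale bars and enriched clusters as solid bars, for replicate 1 (blue) and replicate 2 (orange). SRSF11 has the most clusters (43 and 41), while SRSF2 has the most enriched ones (6 in replicate 1 and 8 in replicate 2, where SRSF11 also has 8), and SRSF10 has 1 cluster in each replicate and none enriched.

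The genes differed in how their enriched clusters were spread. SRSF2 had 6 enriched clusters of 11 in replicate 1 and 8 of 11 in replicate 2, and SRSF5 had 5 of 11 and 7 of 12. SRSF7 had 4 of 10 in replicate 1 and 3 of 12 in replicate 2. The other genes had lower shares: SRSF11 had 5 of 43 and 8 of 41, SRSF4 had 4 of 28 and 3 of 26, and SRSF3 had 3 of 17 and 2 of 12. SRSF6 had 2 of 12 and 1 of 10, TRA2B had 1 of 32 and 2 of 21, and TRA2A had 0 of 22 and 1 of 28. This order depended on read number. Among clusters with enough recovered reads, SRSF7 had 4 enriched of 5 in replicate 1 and 3 of 6 in replicate 2, beside 6 of 9 and 8 of 10 in SRSF2 and 4 of 7 and 7 of 10 in SRSF5. SRSF3 then had 3 of 5 and 2 of 5, TRA2B had 1 of 2 and 2 of 3, and SRSF4 had 4 of 9 and 3 of 7. SRSF11 had 5 of 17 and 8 of 17, SRSF6 had 2 of 5 and 1 of 6, TRA2A had 0 of 6 and 1 of 4, and SRSF10 had no such cluster. With so few clusters per gene, these shares give no firm order. On the strand opposite to the genes, no cluster in the windows was enriched in either replicate. The number of clusters on that strand is not given here. The result therefore has no share to set against the 3.09% and 5.32% of all clusters, and does not show strand specificity.

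The reproducible peaks were concentrated in a few genes. SRSF2 and SRSF5 held 7 peaks each, 14 of the 28 (50.0%), in windows that add up to 8.17 kb of the 178.9 kb examined (4.57%). SRSF7 and SRSF11 held 4 each and SRSF4 held 3. SRSF3, SRSF6 and TRA2B held 1 each, and SRSF10 and TRA2A held none. Per kb of window this was 2.12 peaks in SRSF2 and 1.44 in SRSF5, against 0.507 in SRSF7, 0.0844 in SRSF11 and 0.0450 in TRA2B. The density is per length of the whole window and not per length of mature RNA. Clusters of any kind, enriched or not, were also densest in SRSF2 and SRSF5, at 3.34 and 2.26 per kb in replicate 1. The same density was 2.09 in SRSF6, which held 1 peak, and 0.908 in SRSF11.

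**Figure D2:**
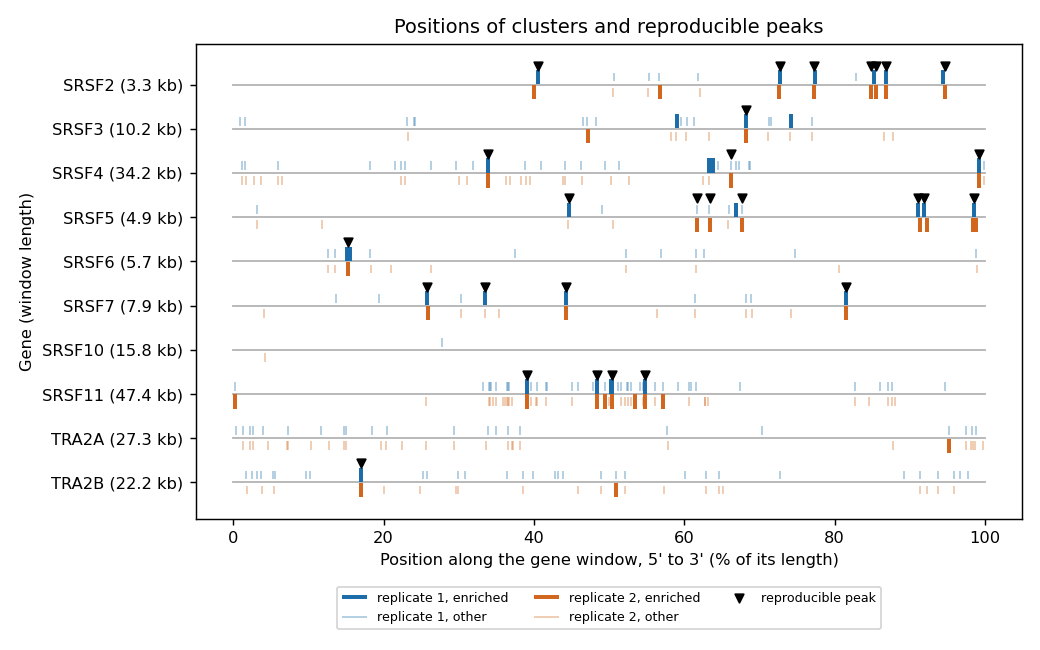
Position of every cluster and reproducible peak along each gene window, 5′ to 3′ in percent of its length (x axis), with the 10 genes as rows and the window length in kb beside each name. Replicate 1 is blue above each line, replicate 2 orange below it, thick ticks are enriched clusters, thin ticks are other clusters, and triangles are reproducible peaks. Peaks of SRSF2 lie mostly in the 3′ part of the window, those of SRSF5 in the middle and at the 3′ end, and those of SRSF11 between 39.0% and 54.8% of the window.

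SRSF2 is a splicing factor of nuclear speckles that is known to regulate its own mRNA through splicing in the 3′ part of the transcript. Its window lies on the minus strand of chromosome 17 from 74730197 to 74733493. Of its 7 peaks, 6 lay within 1000 nt of the 3′ end of this window of 3297 nt, and the remaining one lay 1936 nt from that end. The strongest, from 74730930 to 74730964, held 108 eCLIP reads in replicate 1 and 65 in replicate 2, against 2 input reads. Its log2 fold over input was 5.69 ± 0.22 (SD, n = 2), which is 51.6-fold and ranks 75th of the 2253 reproducible peaks. Both eCLIP libraries stood far above the input at this peak, and its place in the reproducible list already implies enrichment. For this SD and those below, both replicates share the input reads of a peak, so input error is not included.

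A neighbouring SRSF2 peak from 74731083 to 74731109 held 30 and 40 eCLIP reads, against an input number of 1, with a log2 fold of 5.41 ± 0.59 (SD, n = 2). The peak farthest from the 3′ end, from 74732133 to 74732183, held 41 and 44 eCLIP reads, against 2 in the input (log2 fold 4.71 ± 0.37, SD, n = 2). The peak closest to the 3′ end, at 157 nt from it, spanned 74730354 to 74730393. It held 18 and 23 eCLIP reads, against an input number of 1 (log2 fold 4.65 ± 0.55, SD, n = 2). The other 3 peaks of SRSF2 lay within 409 to 494 nt of the end, with log2 folds from 3.70 to 4.20. One pair of them abuts with no gap, so that 7 peaks made 6 separate stretches. In these 7 peaks the folds of replicates 1 and 2 lay 0.02 to 0.88 apart on the log2 scale, and all stood above 3 in both. Outside the peaks, an SRSF2 cluster from 74731606 to 74731637 was enriched in replicate 2 (19 eCLIP reads against 3 input reads, log2 fold 3.18) and listed at a log2 fold of 1.82 in replicate 1. On GRCh38, GENCODE 29 places the microRNA gene MIR636 on the same strand within SRSF2, and these intervals do not separate the 2 RNAs.

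SRSF5 belongs, with SRSF4 and SRSF6, to the SR proteins that have paired RNA recognition motifs. Its window covers 70233851 to 70238722 of chromosome 14, plus strand. The peaks formed a group at the 3′ end of the window and another in its middle. At the 3′ end lay the abutting peaks from 70238280 to 70238303 and from 70238304 to 70238356, and a peak from 70238631 to 70238669, which stopped 53 nt before the window did. The first held 370 and 151 eCLIP reads, against 11 in the input (log2 fold 4.73 ± 0.61, SD, n = 2). The second held 462 and 199 eCLIP reads, against 16 in the input (log2 fold 4.54 ± 0.56, SD, n = 2). These were the largest eCLIP read numbers of the 28 peaks in replicate 1, and the second was the largest in replicate 2. In the list of all 2253 peaks, they stood 27th and 18th by −log10 p.

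The third peak at the SRSF5 3′ end held 77 and 89 eCLIP reads, against 3 in the input, and had the highest log2 fold of this gene, 5.09 ± 0.45 (SD, n = 2). In the middle, between 1540 and 2672 nt from the 3′ end, lay 4 weaker peaks. One of them, from 70236924 to 70236954, held 14 and 11 eCLIP reads, against an input number of 1 (log2 fold 3.93 ± 0.05, SD, n = 2). The other 3 had log2 folds from 3.10 to 3.74. At 2 of these, a replicate fell short of 3 on the log2 scale. From 70235998 to 70236050 replicate 1 stood at 3.76 and replicate 2 at 2.76. From 70236837 to 70236876 replicate 1 stood at 2.73 and replicate 2 at 3.47. The third of these, from 70237111 to 70237182, stood above 3 in both, at 3.46 in replicate 1 and 4.02 in replicate 2.

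SRSF4, which carries a long arginine-serine tail, has a window of 34.2 kb on the minus strand of chromosome 1 from 29474255 to 29508499. Its 3 peaks were spread over it, 11000 and 11228 nt apart. The one with the most reads, from 29496863 to 29496915, held 138 and 75 eCLIP reads, against 8 in the input (log2 fold 3.97 ± 0.32, SD, n = 2). It lay 22608 nt from the 3′ end. The peak from 29474514 to 29474570 lay 259 nt from the 3′ end and held 19 and 21 eCLIP reads, against an input number of 1 (log2 fold 4.62 ± 0.40, SD, n = 2). The third, from 29485799 to 29485862, held 18 and 22 eCLIP reads, against 3 in the input. Its log2 fold of 3.03 ± 0.51 (SD, n = 2) was the lowest of the 28 peaks, and replicate 1 stood at 2.67.

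A pair of SRSF4 clusters, from 29486608 to 29486658 and from 29486817 to 29486861, was enriched in replicate 1. They held 20 and 21 eCLIP reads in replicate 1, against an input number of 1 at each, with log2 folds of 4.41 and 4.48. In replicate 2 no cluster was listed at the first, and the second stood at a log2 fold of 3.51 on 8 eCLIP reads. GENCODE 29 lists a further small RNA gene on the same strand within SRSF4 on GRCh38.

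SRSF6 has a window from 42086504 to 42092244 of chromosome 20, plus strand, and differed from SRSF4 and SRSF5 in where its peak lay. Its only peak, from 42087355 to 42087411, lay 851 nt from the 5′ end of the window, 15.3% of the way along it. It held 299 and 178 eCLIP reads, against 30 in the input, the most input reads of any of the 28 peaks. The log2 fold was 3.24 ± 0.23 (SD, n = 2). With counting error only, the exact 95% interval was 2.86 to 3.998 in replicate 1 and 2.52 to 3.69 in replicate 2. By −log10 p the peak ranked 28th of 2253 and by fold 2101st, so it was a site with many reads and a modest ratio. Replicate 1 listed this stretch as 2 abutting clusters of 287 and 252 reads. At the bounds of the peak it held 299 reads, fewer than their sum of 539, so reads that reach into neighbouring intervals were counted in each.

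SRSF3 and SRSF7 are small SR proteins that also serve as adaptors for mRNA export, and SRSF7 carries a zinc knuckle beside its RNA recognition motif. The single SRSF3 peak covered 36568985 to 36569058 of chromosome 6, plus strand, in a window from 36562090 to 36572244. It held 37 and 22 eCLIP reads, against an input number of 1, and its log2 fold of 5.13 ± 0.23 (SD, n = 2) was among the higher ones of these genes. It lay 3186 nt from the 3′ end. Further SRSF3 clusters were enriched in 1 replicate. The cluster from 36568062 to 36568115 had a log2 fold of 4.18 on 17 eCLIP reads in replicate 1, and the overlapping cluster of replicate 2 had 2.10 on 3 eCLIP reads. The cluster from 36569593 to 36569650 had 3.26 in replicate 1 and 2.97 in replicate 2, and the one from 36566839 to 36566935 had 2.50 in replicate 1 and 3.25 in replicate 2. At the last 2 places the replicates lay on either side of the limit, with both above the input.

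SRSF7 has a window on the minus strand of chromosome 2 from 38970741 to 38978636, and its 4 peaks were spread from 25.7% to 81.5% of the way along it. The strongest, from 38975105 to 38975174, held 32 and 36 eCLIP reads, against an input number of 1 (log2 fold 5.39 ± 0.42, SD, n = 2). The others rested on fewer reads. The peak from 38976579 to 38976630 held 23 eCLIP reads in each replicate, against 2 in the input (log2 fold 3.82 ± 0.30, SD, n = 2). The peak from 38975951 to 38976026 held 24 and 13 eCLIP reads, against 2 in the input (log2 fold 3.44 ± 0.32, SD, n = 2). The peak from 38972178 to 38972222, the one nearest to the 3′ end at 1437 nt, held 13 and 12 eCLIP reads, against an input number of 1 (log2 fold 3.94 ± 0.22, SD, n = 2). All stood above 3 in both replicates, but no SRSF7 peak lay within 1000 nt of the 3′ end.

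**Figure D3:**
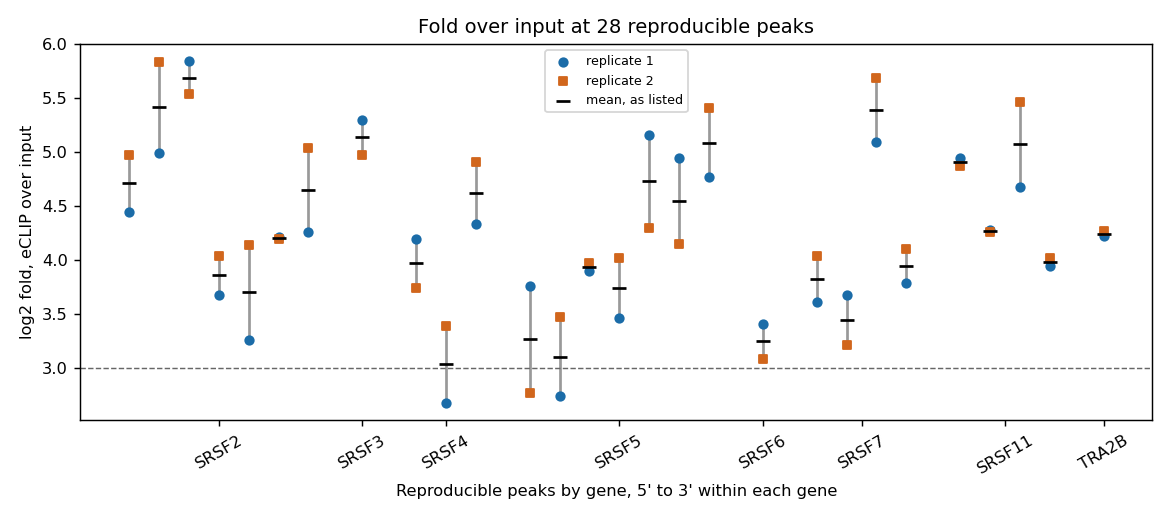
The log2 fold of eCLIP over input (y axis) at each of the 28 reproducible peaks (x axis), grouped by gene and ordered 5′ to 3′ within each gene, with replicate 1 as blue circles, replicate 2 as orange squares and the authors' listed mean as a black bar. The dashed line marks a log2 fold of 3. The means run from 3.03 in SRSF4 to 5.69 in SRSF2, and 3 peaks, 1 in SRSF4 and 2 in SRSF5, have a replicate under the line. Both replicates reach 3 at 25 of the 28 peaks (89.3%), against 95.2% of all 2253 reproducible peaks.

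SRSF11 is an SR-related protein, reported to interact with the 3′ splice site factor U2AF. Its window, the longest at 47.4 kb, covers 70671365 to 70718735 of chromosome 1, plus strand. All 4 of its peaks lay in a stretch of 7498 nt in the middle of the window, the closest of them 21406 nt from its 3′ end. The first, from 70689832 to 70689873, held 116 and 82 eCLIP reads, against 4 in the input (log2 fold 4.91 ± 0.05, SD, n = 2). The second, from 70694256 to 70694304, held 91 and 67 eCLIP reads, against 5 in the input (log2 fold 4.27 ± 0.01, SD, n = 2). The third, from 70695231 to 70695283, held 24 and 31 eCLIP reads, against an input number of 1, and had the highest fold of the gene with the widest spread (log2 fold 5.07 ± 0.56, SD, n = 2). The fourth, from 70697276 to 70697329, held 145 and 113 eCLIP reads, against 10 in the input (log2 fold 3.98 ± 0.05, SD, n = 2). At the 3 SRSF11 peaks with the most reads the log2 folds of the replicates lay 0.02 to 0.07 apart.

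Around these peaks, SRSF11 had further clusters enriched in 1 replicate, and most of their values in the other replicate lay not far below the limits. The cluster of replicate 1 from 70695169 to 70695209 stood at a log2 fold of 3.61, and the overlapping one of replicate 2 at 3.10 with a −log10 p of 2.85. In replicate 2, clusters from 70694808 to 70694840 and from 70698429 to 70698484 had log2 folds of 3.10 and 3.60, and in replicate 1 they had 2.75 and 2.89. The cluster from 70696701 to 70696726 had a log2 fold of 3.84 on 20 eCLIP reads in replicate 2, and no cluster of replicate 1 overlapped it. One lay apart from the rest, near the 5′ end of the window, from 70671480 to 70671511. It had a log2 fold of 3.84 on 10 eCLIP reads in replicate 2 and 3.55 on 11 in replicate 1, where its −log10 p was 2.57.

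TRA2A and TRA2B are human relatives of the Drosophila splicing regulator transformer-2 and bind GA-rich exonic enhancers. The single peak of TRA2B was on the minus strand of chromosome 3 from 185652080 to 185652219, in a window from 185633694 to 185655924. At 140 nt it was the widest of the 28 and lay 3705 nt from the 5′ end of its window. It held 35 and 27 eCLIP reads, against 2 in the input, and its log2 fold was 4.24 ± 0.04 (SD, n = 2), with nearly equal replicates. A second TRA2B cluster, from 185644570 to 185644648, had a log2 fold of 4.84 on 20 eCLIP reads in replicate 2 and 2.89 on 7 in replicate 1.

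TRA2A had no reproducible peak, although its window of 27.3 kb, on chromosome 7 from 23544399 to 23571660, minus strand, held 22 clusters in replicate 1 and 28 in replicate 2. In replicate 1 the cluster with the highest −log10 p, from 23571282 to 23571356 near the 5′ end, held 47 eCLIP reads, against 13 in the input (log2 fold 1.94, −log10 p 5.16). The overlapping cluster of replicate 2 held 28 eCLIP reads, against 13 in the input (log2 fold 1.62). In replicate 2 the leading cluster, from 23545684 to 23545746, lay 1285 nt from the 3′ end and held 14 eCLIP reads, against an input number of 1 (log2 fold 4.32, −log10 p 4.43). Replicate 1 had 12 eCLIP reads there (log2 fold 3.67), and its −log10 p of 2.86 fell just short of 3. The paralogues differed by 1 peak, in TRA2B, and that difference was not tested.

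SRSF10, a relative of the SR proteins that acts as a splicing repressor when it is dephosphorylated, stood apart from the other 9 genes. Its window of 15.8 kb, on chromosome 1 from 24291294 to 24307084, minus strand, held 1 cluster in each replicate, and these lay at different places. In replicate 1 the cluster from 24302682 to 24302714 held 4 eCLIP reads, against an input number of 1 (log2 fold 2.09, −log10 p 0.69). In replicate 2 the cluster from 24306388 to 24306430 held 4 eCLIP reads, against 3 in the input (log2 fold 0.93, −log10 p 0.34). The lists hold clusters and not reads outside them, so they do not show whether TIA1 bound SRSF10 RNA. How much SRSF10 RNA the cells held cannot be read from them either. GENCODE 29 names 1 pseudogene after SRSF10 and none after the other 9 genes. How reads that match both a gene and its copy were placed is not given in the sources used here, and its part in the low number was not tested.

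Across the 28 peaks the median log2 fold was 4.22 (range 3.03 to 5.69), against 4.15 over all 2253 reproducible peaks, where the highest was 7.23. Median width was 51.5 nt, against 53 nt over all peaks. The peaks in SR protein genes held more reads on both sides of the ratio. Their medians were 33.5 eCLIP reads in replicate 1 and 35 in replicate 2 over 2.5 in the input, against 24, 20 and 1 over all peaks. An input number of 1 occurred at 8 of 28 (28.6%), against 51.2% of all peaks whose reads were recovered. At such peaks the fold rests on the smallest input number that occurs, which may stand for 0 or 1. By −log10 p, which grows with reads, 6 of the 28 were among the first 100 of the 2253 peaks, and by fold 1 was. A −log10 p of at least 10 was reached by 11 of 28 (39.3%), against 16.8% of all peaks. The abutting SRSF5 peaks, which are not separate sites, are in both counts by −log10 p.

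**Figure D4:**
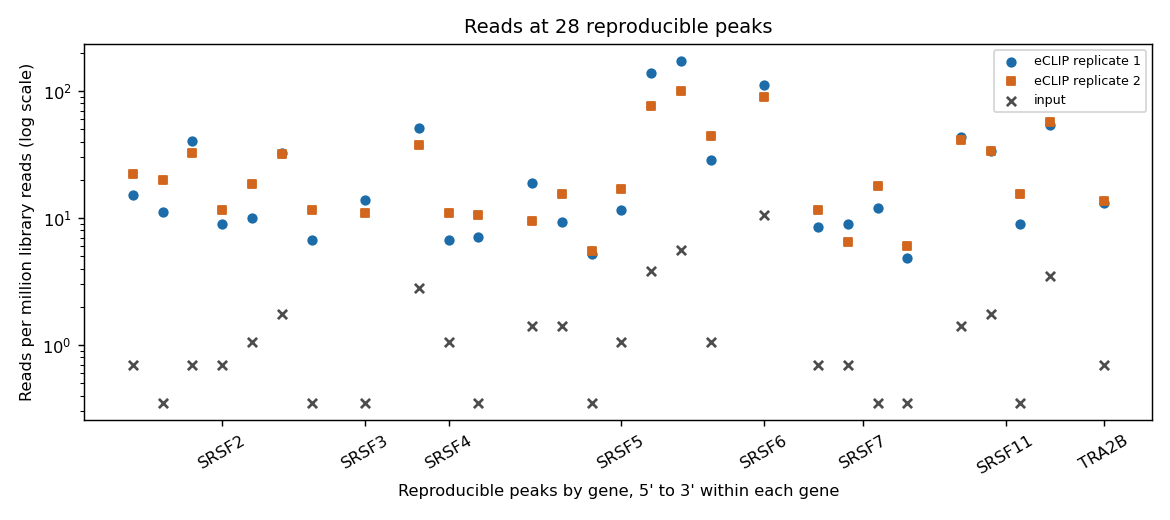
Reads scaled by the library totals (RPM) on a log scale (y axis) at the 28 reproducible peaks (x axis, by gene, 5′ to 3′ within each gene), for eCLIP replicate 1 (blue circles), eCLIP replicate 2 (orange squares) and input (crosses). Both eCLIP libraries lie above the input at every peak, as a place in the reproducible list already implies. The peaks with the most reads are the abutting pair of SRSF5 (138 and 172 RPM in replicate 1) and the peak of SRSF6 (111).

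The replicates were then set against each other at the same bounds. The 2 replicates share the input reads of a peak, so input error does not show in the gap between them. The absolute difference in log2 fold had a median of 0.49 over the 28 peaks, against 0.29 over all peaks, and the largest was 1.00, at the SRSF5 peak from 70235998. Replicate 2 had the higher fold at 17 of 28 peaks (60.7%), close to the 57.5% of all peaks. An exact two-sided binomial test compared the reads of replicate 1 among those of both replicates with its 57.3% share of the library totals, with Benjamini-Hochberg adjustment over 2249 peaks. It called 2 of the 28 peaks, against 1.91% of all peaks tested, and 8 of 28 had an unadjusted p under 0.05, against 232 of 2249. The 28 peaks held more reads than the list as a whole, and such a test finds smaller differences where reads are many. The 8 include the abutting SRSF5 peaks, so they are not separate sites.

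Both calls were the abutting SRSF5 peaks near the 3′ end, and since neighbouring intervals share reads they count as 1 site. From 70238280 to 70238303 the share of replicate 1 was 71.0% (exact 95% interval 66.9 to 74.9; exact binomial test, adjusted p = 6.2e-08), which is 1.82 times the reads of replicate 2 after scaling by the library totals. From 70238304 to 70238356 it held 69.9% (66.2 to 73.4; exact binomial test, adjusted p = 1.8e-08), or 1.73 times. The third peak at the SRSF5 3′ end, from 70238631 to 70238669, leaned the other way with 46.4% (38.6 to 54.3), and its adjusted p was 0.126 in the same exact test. The test compares these 2 libraries and not conditions. Both replicates were above the input at all 3 sites, as their place in the reproducible list already implies. At the other 26 peaks the adjusted p was at least 0.126, which does not show that the replicates were equal there.

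**Figure D5:**
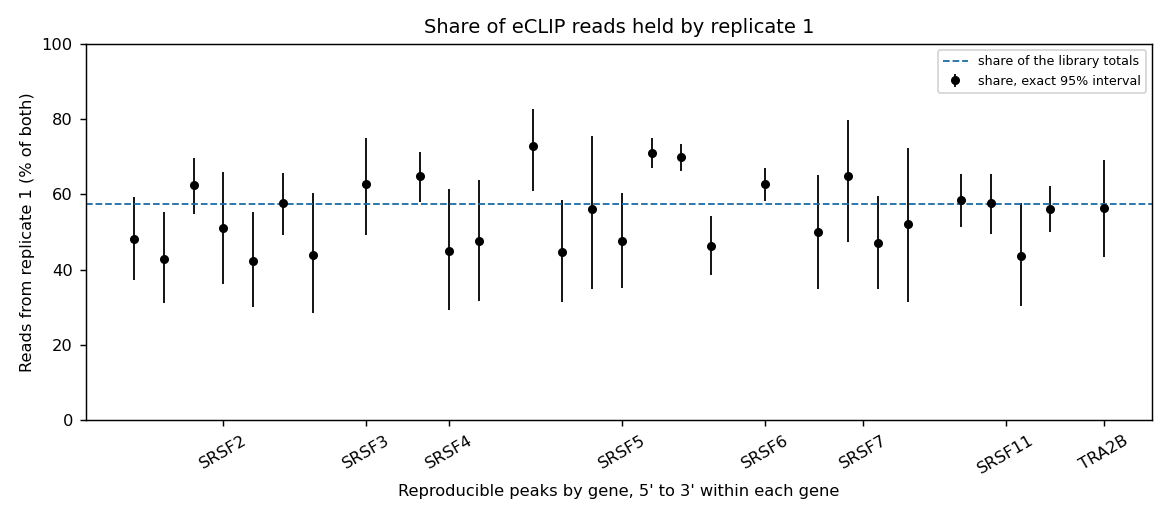
Share of the eCLIP reads of both replicates that came from replicate 1, in percent (y axis), at the 28 reproducible peaks (x axis, by gene, 5′ to 3′ within each gene). Bars are exact 95% intervals that cover counting error only, and the dashed line is the share of replicate 1 in the library totals, 57.3%. The abutting SRSF5 peaks at 71.0% and 69.9% lie above the line, and most other intervals include it.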

How the data were processed

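TIA1 eCLIP was measured in 2 libraries of HEK293T cells beside 1 input. The submitters' processing notes name SAMtools 1.4.1, STAR 2.4.0i, cutadapt 1.9.1 and cutadapt 1.14, with build hg19. Neither their roles nor the cluster caller is given in the sources used here. The authors deposited clusters per replicate and 1 reproducible list for both, with no header. The deposited −log10 p-value (ceiling 400) and the deposited log2 fold of eCLIP over input were identified from their values and used as listed. The input enters only through them.

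Library totals and whole reads were recovered from the steps of the log2 fold and the −log10 p (relative tolerance 2e-05). The form of the test was found by trial on these data. At a reproducible peak, the replicate that supplied the bounds gave one fold and the listed mean the other, and reads were whole within 1e-04 at 2249 peaks (99.8%). For 1 SRSF5 peak at the ceiling in replicate 1, the input number came from replicate 2. Intervals cover counting error only. Calculations used Python 3.11.15, pandas 2.3.3 and scipy 1.17.1 and were tested on simulated data.

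The 10 genes and the limits were chosen with earlier results of these data known. In the text every reproducible peak of a gene with up to 4 is given, otherwise the 4 with the highest fold. Other clusters enriched in 1 replicate, and the weaker SRSF5 peaks, were chosen after their values were seen. A list of other SR-related genes was not analysed here, because no positions in the build of the files were at hand, and no binding site sequences are printed for the same reason.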

Additional observations from a re-analysis of the deposited data

How the results depend on the processing

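Of 25 alternative settings, 18 left the count within 1.5 times its value. That tally mixes settings of different kinds and does not measure stability. The opposite-strand settings count another strand. Leaving out a replicate counts enriched clusters of the other one in place of reproducible peaks. With the limits raised to 4 for the log2 fold and 5 for −log10 p, enriched clusters in the 10 genes numbered 15 in replicate 1 and 20 in replicate 2, and 13 reproducible peaks in 6 genes passed. The shares over all clusters and all peaks at these limits are not given here, so whether the drop is particular to these genes cannot be told. On the opposite strand, all 4 counts (enriched clusters of either replicate, reproducible peaks, and genes with a peak) were 0. Without the number of clusters on that strand, these counts do not show strand specificity. With replicate 1 or replicate 2 left out, the enriched clusters of the remaining replicate numbered 35 and 30, beside 28 reproducible peaks, and the genes holding one numbered 9 and 8, beside 8. Widening each window by 1000 nt changed no count. Joining abutting peaks, an alternative chosen after seeing the data, gave 26. The 2 calls of the replicate comparison were also 2 against the share of reads at all peaks and with at least 20 reads per peak.

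No paired analysis was possible because the single input has no replicate of its own and both eCLIP libraries belong to 1 group. With a median of 2.5 input reads at these peaks, depth of the input limits the folds.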
